A study of Mus musculus with 6 samples.

Results

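The Cyp3a genes of the mouse encode cytochromes P450 of the 3A subfamily, and 8 of them were examined here by symbol among the 49212 gene rows that were counted in 6 liver libraries: Cyp3a11, Cyp3a13, Cyp3a16, Cyp3a25, Cyp3a41a, Cyp3a41b, Cyp3a44 and Cyp3a59. All 8 were found, and all 8 passed the filter on low counts, some of them through a single group, as given below. The libraries came from liver tissue of C57BL/6J mice aged 15 weeks. In 3 of them the mice were labelled placebo. In the other 3 the mice were labelled as treated with a pellet of DHT (dihydrotestosterone, an androgen that the body does not convert to oestrogen) and as a model of PCOS (polycystic ovary syndrome). Not given in the sources used here: pellet dose, start and length of treatment, sex, collection time and pooling of animals. Nothing says that the libraries came from separate animals, so p-values measure the spread between these 6 samples, which may be technical.

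Enzymes of the 3A subfamily sit in the endoplasmic reticulum of hepatocytes and enterocytes, where they oxidise steroids such as testosterone, bile acids and a large share of drugs. Electrons reach them from the reductase POR and from cytochrome b5, and their transcription is induced through the pregnane X receptor (PXR, gene Nr1i2) and the constitutive androstane receptor (CAR, gene Nr1i3). In adult mouse liver Cyp3a11 and Cyp3a25 are expressed in both sexes, Cyp3a41 and Cyp3a44 are known as female-predominant genes that follow the pattern of growth hormone release, and Cyp3a16 is known as a fetal and neonatal form. Cyp3a13 is the member best known from the intestine.

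Library totals ranged from 41336844 to 60209462 counts. Levels are given in CPM, the usual scaling of each gene's count by the library's total, and on that scale 3 counts equal 0.0498 CPM in the deepest library and 0.0726 CPM in the shallowest. Hepatocyte markers were high in all libraries, with Alb (albumin) between 55572 and 92881 CPM. Transcripts of the Y chromosome summed to between 1.02 and 2.16 CPM in the placebo libraries and to between 145 and 169 CPM in the libraries labelled DHT, while Xist, the RNA that silences an X chromosome in female cells, had between 23.3 and 235 CPM in placebo and between 0.116 and 0.556 CPM in the libraries labelled DHT. The label and the Y-linked signal therefore divide the 6 libraries in the same way and cannot be told apart in any result given here. "DHT" below means the libraries labelled so.

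Across the 8 members, 4 fell and 0 rose in DHT at an adjusted p under 0.05 by edgeR's quasi-likelihood test, where 0.701% of the 15126 genes tested were called lower and 0.952% higher. The 4 were Cyp3a41a, Cyp3a41b, Cyp3a44 and Cyp3a59. Cyp3a41a, Cyp3a41b and Cyp3a44 passed the low-count filter through their placebo libraries alone, so a call of these genes could hardly be other than lower. At an unadjusted p under 0.05, 7 members were lower and 0 higher, against 8.52% and 7.4% of all genes (15.9% in either direction). DESeq2 called 6 members lower and 0 higher, against 3.21% and 2.82% of all genes with an adjusted p. Limma voom called 5 lower and 0 higher, against 2.24% and 2.43%. In 7 of the 8, every DHT library lay below every placebo library on the CPM scale, which 6.27% of all genes tested did. Cyp3a25, whose groups overlapped, was the exception, and in 0 members every DHT library lay above, against 21.1% of all genes. With the replicate number as a block, 5 members fell (Cyp3a11, Cyp3a13, Cyp3a41a, Cyp3a41b and Cyp3a59) and 0 rose, where 5.28% of all genes were called lower and 5.44% higher. Under the block Cyp3a16 (adjusted p = 0.224), Cyp3a44 (0.217) and Cyp3a25 (0.772) were not called. No label states that libraries of the same number are pairs, so results with the block rest on an assumption. The median log2 fold change (DHT minus placebo) was −4.52 over the 8 members and −0.02 over all genes tested. The total of the 8 genes was 4564, 4601 and 6628 CPM in placebo libraries 1 to 3 and 2074, 2262 and 1273 CPM in DHT libraries 1 to 3. As a share of all counts, that was between 0.456% and 0.663% in placebo and between 0.127% and 0.226% in DHT. In bulk tissue, fewer cells that express a gene and less RNA of it per cell cannot be told apart.

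**Figure D1:**
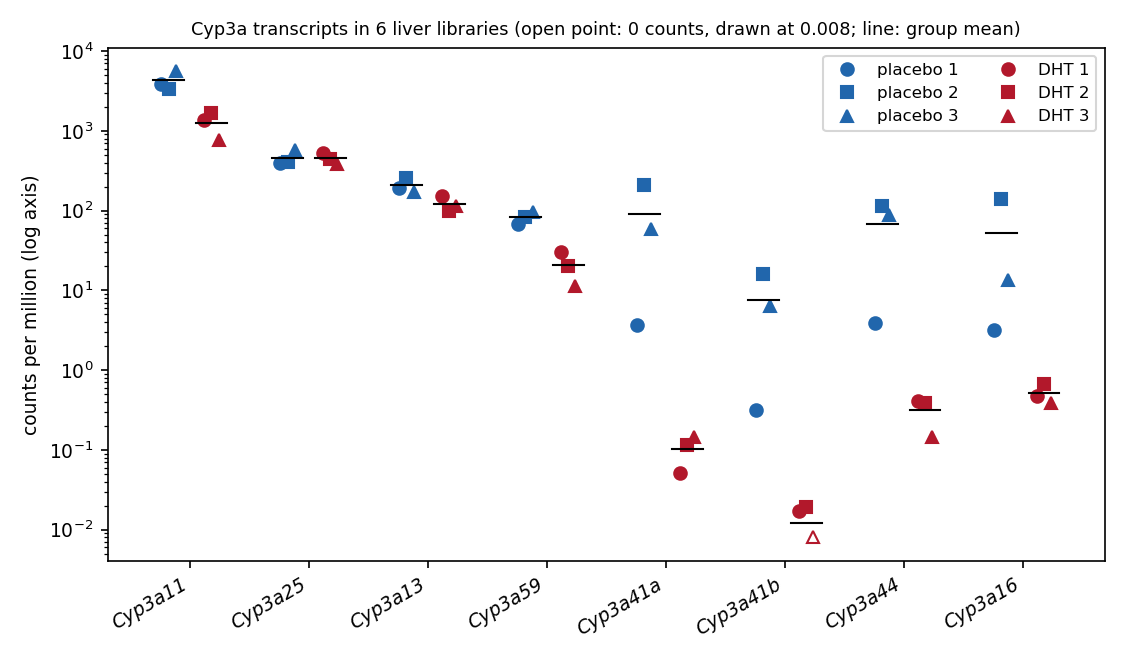
CPM (log axis) of the 8 Cyp3a genes in each of the 6 libraries, with blue for placebo, red for DHT, a symbol for each library number and a line at the group mean. The last 4 genes spread over a 29.0-fold to 57.6-fold range within placebo and lie below 1 CPM in all DHT libraries, whereas the groups overlap for Cyp3a25.

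The members form sequence groups that match their positions. Of the 8, 7 lie in a cluster on chromosome 5 (GRCm38, 145345279 to 146113287, counting the non-member Cyp3a57), and Cyp3a13 (137892932 to 137921619) lies 7.42 Mb away from it. In coding sequence, Cyp3a41a and Cyp3a41b were 99.9% identical with 2 differences over 1512 bases, Cyp3a25 and Cyp3a59 were 97.5% identical, and Cyp3a44 was 95.8% identical to Cyp3a41a. Cyp3a11 was 95.2% identical to Cyp3a41a and 92.8% to Cyp3a16, but 77.4% to Cyp3a25. Cyp3a13 was at most 77.9% identical to any other member. None of the members' exons overlapped an exon of another counted gene.

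Identity limits how well reads can be assigned. Of the 150-base windows in the annotated transcripts of Cyp3a41a, 82.9% occur unchanged in Cyp3a41b, and 82.7% of the windows of Cyp3a41b occur in Cyp3a41a. Between Cyp3a25 and Cyp3a59 only 13 windows are shared, 0.586% and 0.649% of each gene's windows. The other 4 members share no window of that length with any annotated gene. Shorter windows and inexact matches were not compared. In coding sequence Cyp3a44 and Cyp3a16 are 94.9% and 92.8% identical to Cyp3a11, and stray reads between these genes were not tested for. The treatment of reads with several matches is not given in those sources, so the split of counts between Cyp3a41a and Cyp3a41b is uncertain.

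Shown next are the upstream sequences of Cyp3a41a, Cyp3a44 and Cyp3a16, whose differences were among the deepest, and of Cyp3a25, whose groups overlapped. These genes were chosen with their results known, and a link between upstream sequence and difference was not tested. Each is the 250 bases before the RefSeq start on GRCm38.p6, 5′ to 3′ on the minus strand of chromosome 5, at chr5:145720137-145720386 for Cyp3a41a, chr5:145805875-145806124 for Cyp3a44, chr5:145469724-145469973 for Cyp3a16 and chr5:146009619-146009868 for Cyp3a25. Capitals mark matches to CAAAGTCCA, a motif of the hepatocyte factor HNF4, and to ATTGAT on either strand, the core of the motif of HNF6, the product of Onecut1.
Cyp3a41a: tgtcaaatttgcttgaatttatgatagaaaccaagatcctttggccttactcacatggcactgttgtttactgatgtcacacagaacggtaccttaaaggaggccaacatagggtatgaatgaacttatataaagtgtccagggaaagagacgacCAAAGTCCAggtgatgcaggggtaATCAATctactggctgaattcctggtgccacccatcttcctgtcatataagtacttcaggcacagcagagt
Cyp3a44: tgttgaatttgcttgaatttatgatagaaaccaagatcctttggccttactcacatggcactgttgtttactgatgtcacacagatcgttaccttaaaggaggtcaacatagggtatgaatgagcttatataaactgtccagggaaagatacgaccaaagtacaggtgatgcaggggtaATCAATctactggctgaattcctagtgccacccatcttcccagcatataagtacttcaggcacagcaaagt
Cyp3a16: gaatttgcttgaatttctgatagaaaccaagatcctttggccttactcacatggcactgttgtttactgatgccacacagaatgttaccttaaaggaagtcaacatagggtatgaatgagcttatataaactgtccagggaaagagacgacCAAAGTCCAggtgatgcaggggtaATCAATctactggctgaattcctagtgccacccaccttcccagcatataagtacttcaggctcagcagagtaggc
Cyp3a25: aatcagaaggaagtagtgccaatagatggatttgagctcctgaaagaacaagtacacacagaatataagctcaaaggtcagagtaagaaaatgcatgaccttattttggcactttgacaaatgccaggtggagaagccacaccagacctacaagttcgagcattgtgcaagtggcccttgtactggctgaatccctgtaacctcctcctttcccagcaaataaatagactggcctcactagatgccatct

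The window of Cyp3a41a was 99.6% identical to that of Cyp3a41b (1 difference), 94.4% to that of Cyp3a44 and 91.4% to that of Cyp3a16, but 56.8% to that of Cyp3a25. Cyp3a25, whose groups overlapped, and Cyp3a59, which was called lower, were 94.8% identical to each other there. ATTGAT was found in the windows of Cyp3a16, Cyp3a41a, Cyp3a41b and Cyp3a44 and in those of no other member, and in 6.72% of 32851 RefSeq promoter windows of the same length from 27025 genes. The window of the non-member Cyp3a57 held it too. CAAAGTCCA was found in Cyp3a11, Cyp3a16, Cyp3a41a and Cyp3a41b, and in 0.384% of all windows. For Cyp3a11 the RefSeq start lies inside the counted gene, so that 110 bases of its window lie within that gene. Its match to CAAAGTCCA, at −109 to −101 from the RefSeq start, is among those bases. Both strands were searched, and both motifs were chosen with these sequences in view.

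Hexamers bound by nuclear receptors were also present. AGGTCA occurred in the windows of Cyp3a11, Cyp3a25, Cyp3a44 and Cyp3a59 (14.0% of all windows), and AGTTCA occurred in those of Cyp3a11, Cyp3a41a and Cyp3a41b (11.8%). The paired forms DR3 (a direct repeat of AGGTCA) and ER6 (an everted repeat of AGTTCA), which contain those hexamers, were in none of the 8 windows and in 0.00609% of all windows each. TTCNNNGAA, the STAT motif (7.02% of all windows), TTANGTAA, the D-box (2.06%), and CACGTG, the E-box (6.02%), were in none of the 8. A match describes letters in this window, not a bound site, and elements outside the window were not searched.

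Cyp3a41a, the more counted of the 2 near-identical female-predominant copies (chromosome 5, 145694049 to 145720136), had 3.67, 211 and 58.8 CPM in placebo libraries 1 to 3 and 0.0506, 0.116 and 0.145 CPM in DHT libraries 1 to 3. All 3 DHT libraries were close to 0, at 3, 6 and 6 counts, and placebo 1 stood far below the other placebo libraries. The log2 fold change was −10.01 ± 1.59 (SE, adjusted p = 0.0231 by edgeR). The size of the change depended on placebo 2, without which it was −8.48, and on the tool, since limma voom gave −8.15. With the replicate number as a block it was −9.54 (adjusted p = 2.68e-07). Pooled over each group, 14952 counts in placebo against 15 in DHT gave a CPM ratio of 904 (exact 95% interval 548 to 1615, which covers counting error only).

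Cyp3a41b (145558664 to 145584730), its copy, had 0.316, 15.9 and 6.40 CPM in placebo and 0.0169, 0.0193 and 0 CPM in DHT, which is 1, 1 and 0 counts. The order of the placebo libraries was that of Cyp3a41a. Cyp3a41b fell, with a log2 fold change of −9.13 ± 1.66 and an adjusted p = 0.0391 by edgeR. The fold change was −7.99 without placebo 2 and −6.49 by limma voom, and the pooled CPM ratio of placebo to DHT was 558 (exact 95% interval 154 to 4616). Summed over both copies, the level was 3.99, 227 and 65.2 CPM in placebo and 0.0675, 0.135 and 0.145 CPM in DHT. The sum removes the uncertain split between them, but not any loss of reads that match both.

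Cyp3a44, the other female-predominant gene (145773983 to 145805874), had 3.92, 114 and 88.4 CPM in placebo and 0.405, 0.387 and 0.145 CPM in DHT. Placebo 1 was again the low one, and the groups did not overlap. The log2 fold change was −7.95 ± 1.27 (adjusted p = 0.0235 by edgeR). With the replicate number as a block it was −7.12 (adjusted p = 0.217), so the call of Cyp3a44 was lost there, and limma voom gave −5.98.

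Cyp3a16, the fetal and neonatal form (145436309 to 145469723), had 3.22, 141 and 13.5 CPM in placebo and 0.473, 0.677 and 0.387 CPM in DHT. Placebo 2 held most of it, and the 3 DHT libraries lay within a 1.75-fold range. The log2 fold change was −6.88 ± 1.42 (adjusted p = 0.0645 by edgeR, range over 16 alternatives 2.44e-05 to 0.290), so the difference did not pass the threshold. The fold change rested largely on placebo 2, without which it was −4.24, and it was −5.49 with the replicate block (adjusted p = 0.224) and −5.07 by limma voom. By DESeq2 the difference passed (adjusted p = 2.44e-05).

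These 4 genes varied more among placebo libraries than any other member. Their highest placebo library exceeded the lowest by 57.6-fold for Cyp3a41a, 50.4-fold for Cyp3a41b, 43.8-fold for Cyp3a16 and 29.0-fold for Cyp3a44. For Cyp3a11, Cyp3a13, Cyp3a25 and Cyp3a59 that range was between 1.42-fold and 1.67-fold. Summed, the 4 genes had 11.1, 482 and 167 CPM in placebo and 0.945, 1.20 and 0.677 CPM in DHT, so that even placebo 1 lay above each DHT library. Their proportions differed between placebo libraries too, with 1.24 counts of Cyp3a16 for each count of Cyp3a44 in placebo 2 and 0.153 in placebo 3. The order of the placebo libraries for these genes was not that of Xist, which was highest in placebo 3 (235 CPM) and lowest in placebo 2 (23.3 CPM).

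Cyp3a11, the main drug-inducible 3A enzyme of adult mouse liver (145854426 to 145879964), had 3904, 3372 and 5617 CPM in placebo and 1364, 1695 and 757 CPM in DHT. Every DHT library lay below every placebo library, and the means were 4298 ± 1173 and 1272 ± 475 CPM (SD, n = 3 each), a 3.38-fold difference. The log2 fold change was −1.95 ± 0.39 (adjusted p = 0.0539 by edgeR, range over 16 alternatives 3.43e-05 to 0.189), just outside the threshold. With the replicate number as a block the adjusted p was 0.000244, and it was 3.43e-05 by DESeq2 and 0.0351 by limma voom.

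Cyp3a59 (146079257 to 146113287) fell 4.50-fold in the fit. It had 68.2, 82.0 and 96.7 CPM in placebo and 30.6, 20.4 and 11.3 CPM in DHT, with no overlap. Its log2 fold change was −2.17 ± 0.39 (adjusted p = 0.0393 by edgeR, range over 16 alternatives 5.70e-06 to 0.173). On the reference, Cyp3a59 is on the plus strand and Cyp3a25, its closest relative, on the minus strand.

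Cyp3a25 (145977194 to 146009618) had 390, 406 and 575 CPM in placebo and 526, 447 and 389 CPM in DHT. The groups overlapped, with means of 457 ± 103 and 454 ± 68.9 CPM (SD, n = 3 each). The log2 fold change was −0.20 ± 0.29 (adjusted p = 0.766 by edgeR) and its sign was not settled, since it was 0.01 by limma voom and 0.01 without placebo 3. Scaling by library size alone gave −0.01, and that scaling moved the median of all genes from −0.02 to 0.17.

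Cyp3a13 (137892932 to 137921619), the member outside the cluster, had 191, 259 and 172 CPM in placebo and 153, 98.6 and 115 CPM in DHT. The groups did not overlap, but their nearest libraries, placebo 3 and DHT 1, were close. The log2 fold change was −0.95 ± 0.30 (adjusted p = 0.181 by edgeR, range over 16 alternatives 0.0254 to 0.545). With the replicate number as a block it passed (adjusted p = 0.0254).

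**Figure D2:**
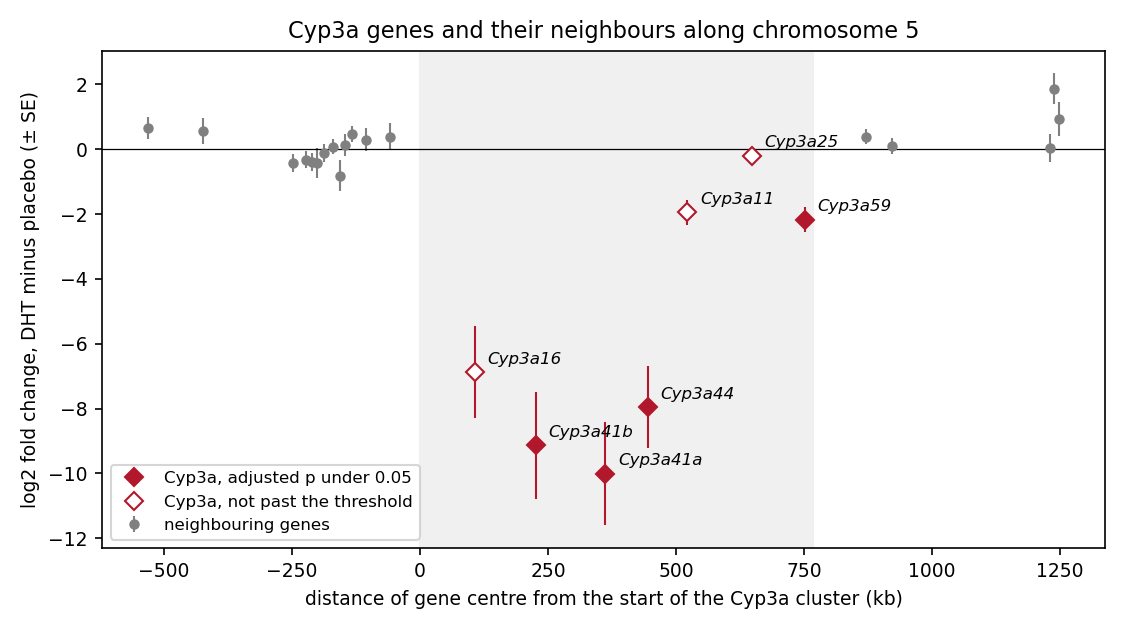
Log2 fold change (DHT minus placebo, ± SE) of 7 Cyp3a genes (diamonds, filled where the adjusted p was under 0.05) and 18 tested neighbours (grey circles) against distance from the start of the cluster, in kb, with the cluster shaded. Cyp3a16, Cyp3a41b, Cyp3a41a and Cyp3a44 follow one another among the members and lie between −6.88 and −10.01. The neighbours, all outside the cluster and none of them a Cyp3a gene, lie between −0.82 and 1.86. The pseudogene Cyp3a63-ps (−3.26), between Cyp3a41b and Cyp3a41a, is not drawn.

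Within a library, the ratio of 2 members does not depend on library size or scaling. Cyp3a11 had 10.01, 8.31 and 9.77 counts for each count of Cyp3a25 in placebo and 2.59, 3.79 and 1.95 in DHT. The ratio of Cyp3a59 to Cyp3a25 was 0.175, 0.202 and 0.168 in placebo and 0.0582, 0.0457 and 0.0290 in DHT. For both, every DHT library lay below every placebo library, with a mean log2 difference of −1.80 for Cyp3a11 and −2.09 for Cyp3a59. The ratio of Cyp3a13 to Cyp3a25 was 0.490, 0.638 and 0.299 in placebo and 0.290, 0.221 and 0.295 in DHT, where placebo 3 nearly met DHT 3. All 3 ratios gave p = 0.1 in a two-sided exact permutation test, before and after Benjamini-Hochberg adjustment over the 3, which is the smallest that 3 against 3 libraries allows. The divisor, Cyp3a25, was the member whose groups overlapped. The ratios therefore restate the CPM differences free of scaling and are not separate support for them.

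**Figure D3:**
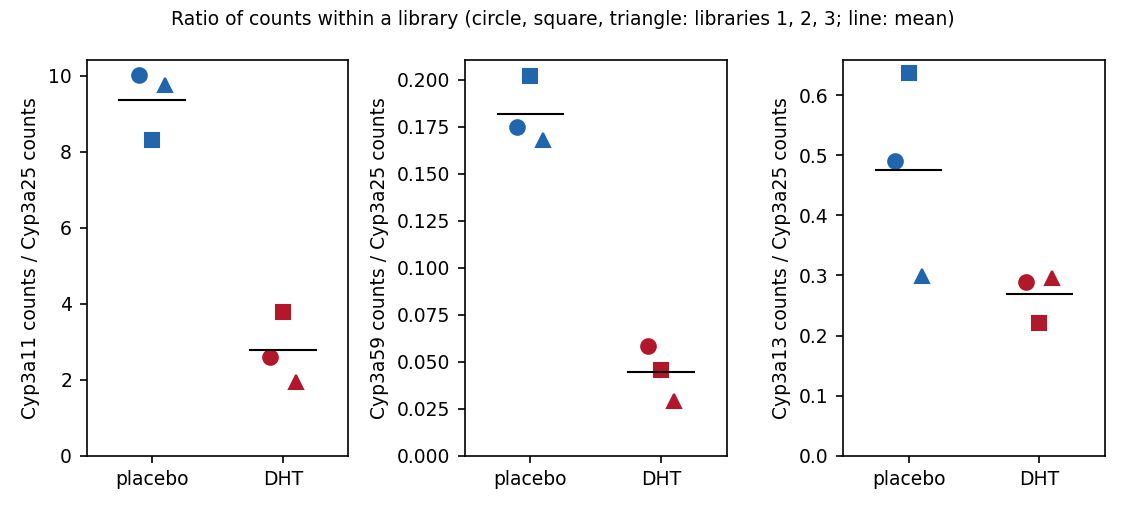
Counts of Cyp3a11, Cyp3a59 and Cyp3a13 divided by counts of Cyp3a25 in the same library, with a symbol for each library number and a line at the group mean, each axis from 0. The ratios of Cyp3a11 and Cyp3a59 leave a wide gap between placebo and DHT, and for Cyp3a13 placebo 3 (0.299) lies next to DHT 3 (0.295).

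Levels of different members were set side by side after division by exon length, as RPKM (CPM per kilobase of exon). The counted exons of Cyp3a11 span 5093 bases, against 1730 to 2956 for the other members, although coding lengths are 1509 or 1512. Its RPKM is too low if part of that length is little transcribed, which was not tested. Division by length also does not correct for reads lost between Cyp3a41a and Cyp3a41b. In placebo, Cyp3a11 led with 844 ± 230 RPKM, followed by Cyp3a25 with 219 ± 49.2 and Cyp3a13 with 70.1 ± 15.5 (SD, n = 3). The ranges of Cyp3a11 and Cyp3a25 did not touch, nor did those of Cyp3a25 and Cyp3a13. From Cyp3a13 down, through Cyp3a41a (44.3 ± 52.2), Cyp3a59 (41.1 ± 7.10), Cyp3a44 (35.03 ± 29.3) and Cyp3a16 (30.4 ± 44.4) to Cyp3a41b (3.65 ± 3.81), the ranges of neighbours in the order overlapped. In DHT, Cyp3a11 (249.7 ± 93.4 RPKM) and Cyp3a25 (218 ± 33.1) overlapped. That overlap depends on the exon lengths, as counts of Cyp3a11 were 1.95 to 3.79 times those of Cyp3a25 there. Below them Cyp3a13 (41.3 ± 9.37), Cyp3a59 (10.4 ± 4.83), Cyp3a16 (0.296 ± 0.0860), Cyp3a44 (0.159 ± 0.0739), Cyp3a41a (0.0504 ± 0.0235) and Cyp3a41b (0.00585 ± 0.00510) each had a range apart from the next. The lowest ranks rest on few counts, with 79 for Cyp3a16, 50 for Cyp3a44, 15 for Cyp3a41a and 2 for Cyp3a41b pooled over DHT. The split between Cyp3a41a and Cyp3a41b is uncertain, so their order is not settled.

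Shares of the 3A transcripts were compared next, and they carry the same limits of exon length. Of the summed RPKM of the 8 genes, Cyp3a11 took 72.4%, 53.6% and 70.3% in placebo and 45.5%, 56.3% and 39.1% in DHT, so the groups overlapped through placebo 2. Cyp3a25 took 17.7%, 15.8% and 17.6% in placebo and 43.0%, 36.3% and 49.1% in DHT, with no overlap. In placebo 2, Cyp3a41a took 8.30%, Cyp3a16 6.60% and Cyp3a44 4.70%, beside 7.09% for Cyp3a13. In placebo 3 they took 1.82%, 0.497% and 2.87%, and in placebo 1 only 0.168%, 0.176% and 0.189%. None of the 3 reached 0.1% in any DHT library.

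**Figure D4:**
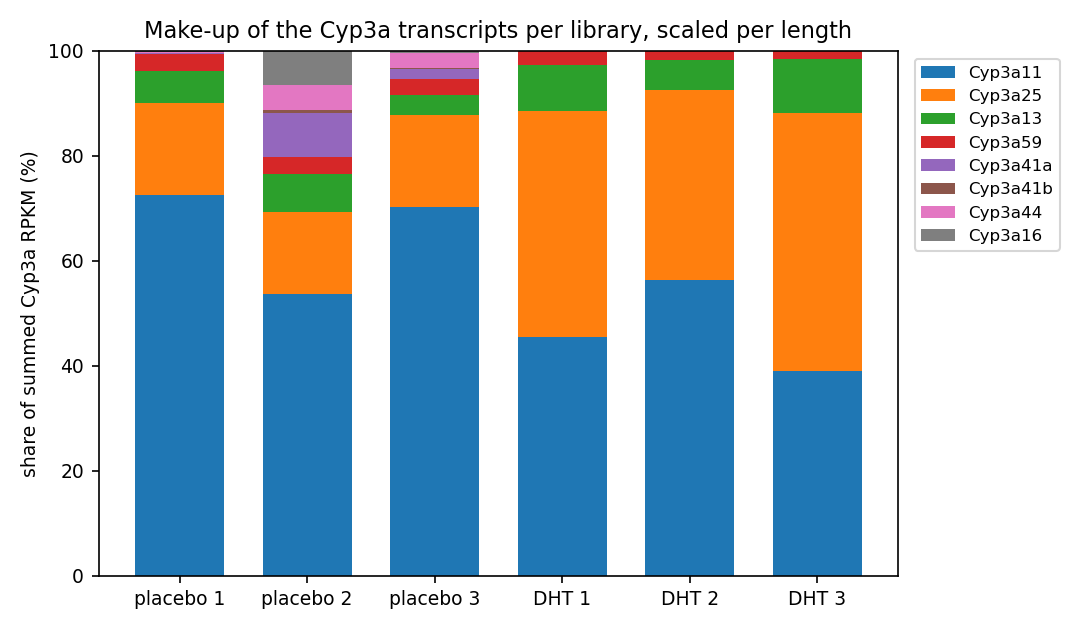
Share of the summed Cyp3a RPKM (%) taken by each of the 8 genes in each library, as stacked bars. Cyp3a25 takes between 15.8% and 17.7% in the placebo bars and between 36.3% and 49.1% in the DHT bars, and the purple, pink and grey parts of placebo 2 are Cyp3a41a, Cyp3a44 and Cyp3a16.

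The calls depended on single libraries. With 1 library left out, Cyp3a41a, Cyp3a41b and Cyp3a44 stayed called only without placebo 1, with adjusted p-values of 0.0065, 0.0065 and 0.00287 by edgeR, and reached 0.127, 0.148 and 0.121 in the other fits. Cyp3a16 became called in that fit (adjusted p = 0.0493). Cyp3a59 stayed called without placebo 3 (0.0213) and without DHT 1 (0.0459) and lost its call in the remaining 4, which left out placebo 1 (0.111), placebo 2 (0.102), DHT 2 (0.173) and DHT 3 (0.0739). Cyp3a11 became called without placebo 3 (adjusted p = 0.0242). The number of members called lower was 4 without placebo 1, 2 without placebo 3, 1 without DHT 1 and 0 without placebo 2, DHT 2 or DHT 3. Directions were the same in all 6 fits for every member except Cyp3a25.

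**Figure D5:**
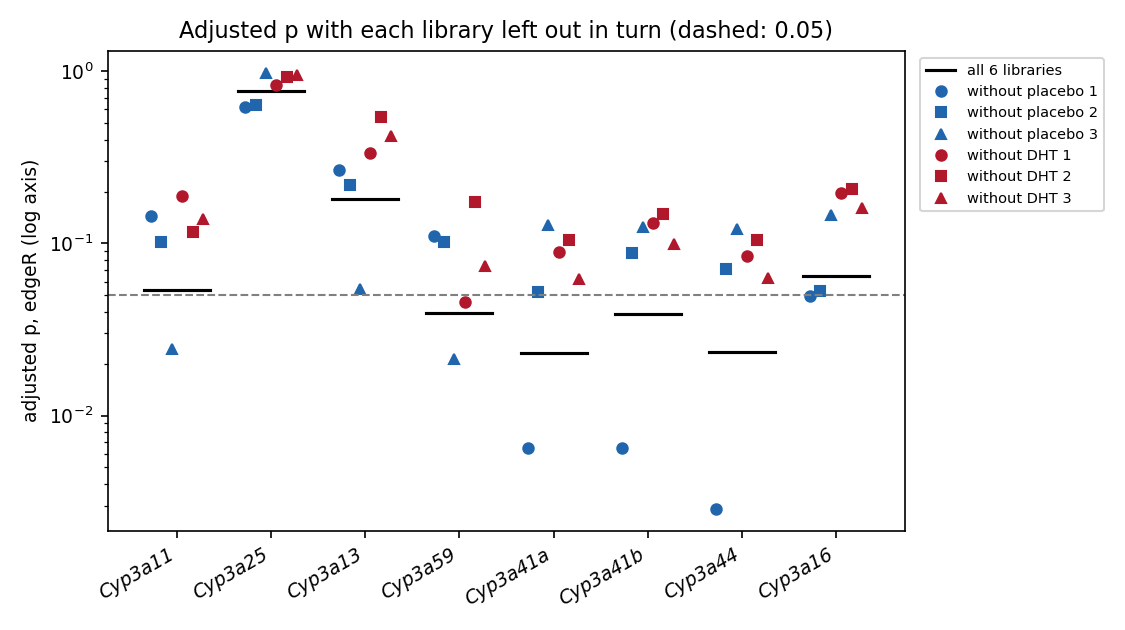
Adjusted p (edgeR, log axis) of each member with all 6 libraries (black line) and with each library left out in turn (points), with 0.05 dashed. The points for placebo 1 lie lowest for Cyp3a41a, Cyp3a41b and Cyp3a44, and most other points lie above the dashed line.

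Other rows named Cyp3a were sparse. Cyp3a57 (145345279 to 145390926), the first gene of the cluster, had 6, 4 and 4 counts in placebo and 6, 7 and 0 in DHT, too few to be tested. Its coding sequence is 93.9% identical to that of Cyp3a25. The pseudogene Cyp3a63-ps (145624092 to 145633993), which lies between Cyp3a41b and Cyp3a41a, had 16, 27 and 65 counts in placebo and 6, 5 and 1 in DHT. Its log2 fold change was −3.26 ± 0.76 (adjusted p = 0.0905 by edgeR), and with the replicate number as a block the adjusted p was 0.00106.

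Within 500 kb of the cluster, 18 other genes were tested. edgeR called 0 of them, with 1 at an unadjusted p under 0.05, against 1.65% and 15.9% of all genes. DESeq2 and the replicate block each called 1, Gpr12, higher, and limma voom called 0, against 2.82%, 5.44% and 2.43% of all genes called higher. Their median log2 fold change was 0.11. The nearest tested gene before the cluster, Zscan25, a zinc finger gene 54001 bases away (145280500 to 145291278), had a log2 value of 0.39 ± 0.42. The nearest after it, Rnf6, a ubiquitin ligase gene 95905 bases away (146209192 to 146221555), had 0.40 ± 0.23. Adjusted p-values of Zscan25 and Rnf6 by edgeR were 0.681 and 0.440. The 13 other rows within the cluster were not tested for lack of counts.

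The receptors that induce 3A genes were not called. Of 12 listed receptors and cofactors, 11 were tested and 0 were called by edgeR, DESeq2 or limma voom, where 1.65% of all genes were called by edgeR. At an unadjusted p under 0.05 edgeR gave 0, against 15.9% of all genes, and the median log2 fold change of the list was −0.03. Nr1i2, which encodes PXR, had 64.6, 69.3 and 66.6 CPM in placebo and 54.8, 54.6 and 54.6 CPM in DHT. Those values did not overlap, yet the log2 fold change was −0.48 ± 0.21 (adjusted p = 0.318 by edgeR). Nr1i3, which encodes CAR, had 23.2, 51.1 and 60.9 CPM in placebo and 42.8, 40.0 and 70.3 CPM in DHT, so the groups overlapped in part, with placebo 1 below every DHT library and DHT 3 above every placebo library. Ppargc1a, which encodes a coactivator (log2 fold change −0.77 ± 0.35), and Nr0b2, which encodes the repressor SHP (0.81 ± 0.37), had adjusted p-values of 0.335 and 0.336 by edgeR. Without placebo 3, Ppargc1a was called (adjusted p = 0.0341).

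Of 6 genes listed for electron transfer to P450 enzymes or as other partners of them, 1 fell and 0 rose by edgeR, against 0.701% and 0.952% of all genes. Por, the reductase that 3A enzymes need, had 853, 1184 and 509 CPM in placebo and 164, 123 and 106 CPM in DHT. The groups were far apart, and the log2 fold change was −2.88 ± 0.39 (adjusted p = 0.0125 by edgeR), a call lost without placebo 1 (0.0545) or DHT 2 (0.0818). For Pgrmc2, a membrane haem-binding protein gene, it was 0.86 ± 0.33 (adjusted p = 0.256, and 0.0240 with the replicate block). For Cyb5b, a cytochrome b5 gene, it was 0.70 ± 0.31 (adjusted p = 0.319). The list's median log2 fold change was 0.11.

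Among 25 genes listed as targets of PXR or CAR, 3 fell and 0 rose by edgeR, and their median log2 fold change was −1.01. Over all genes, 0.701% were called lower and 0.952% higher. At an unadjusted p under 0.05, 13 of the 25 were lower and 3 higher, against 8.52% and 7.4% of all genes. With the replicate block 11 fell and 2 rose, against 5.28% and 5.44%. By DESeq2 11 fell and 1 rose, against 3.21% and 2.82%, and by limma voom 10 fell and 1 rose, against 2.24% and 2.43%. Akr1b7, an aldo-keto reductase gene, had 4.72, 3.05 and 2.59 CPM in placebo and 0.236, 0.213 and 0.169 CPM in DHT (log2 fold change −4.22 ± 0.40, adjusted p = 0.00267). Ces2a, a carboxylesterase gene, had 397, 476 and 397 CPM against 120, 83.6 and 139 CPM (−2.08 ± 0.29, adjusted p = 0.0137), and lost its call without placebo 1, placebo 2, DHT 1 or DHT 2 (0.0512 to 0.0818). Cyp2b13, a female-predominant P450 gene, had 71.5, 377 and 106 CPM against 3.21, 0.445 and 0.387 CPM (−7.26 ± 1.16, adjusted p = 0.0239), and lost its call with the replicate block (adjusted p = 0.185) and without placebo 1, placebo 2, placebo 3 or DHT 2 (up to 0.0936). Its log2 fold change was −6.20 without placebo 2 and −9.01 without DHT 1. Akr1b7 stayed called in all 16 alternatives.

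Of 19 genes of growth hormone signalling and liver transcription factors, 2 fell and 0 rose by edgeR, with a median log2 fold change of −0.02. Over all genes, 0.701% were called lower and 0.952% higher. The replicate block, DESeq2 and limma voom each called 5 lower and 0 higher. Of all genes they called 5.28%, 3.21% and 2.24% lower and 5.44%, 2.82% and 2.43% higher. Cux2, a homeobox factor known for its female-specific expression in liver, had 26.1, 34.5 and 11.2 CPM in placebo and 0.236, 0.155 and 0.242 CPM in DHT. Its log2 fold change was −7.00 ± 0.54 (adjusted p = 0.00111 by edgeR), called in all 16 alternatives. Unlike the 3A genes of the Cyp3a41 type, Cux2 in placebo 1 lay between placebo 2 and placebo 3. Esr1, the oestrogen receptor gene, had 83.2, 101 and 56.6 CPM against 22.4, 12.6 and 13.7 CPM (log2 fold change −2.48 ± 0.35, adjusted p = 0.0141), and lost its call without placebo 1, placebo 2, DHT 2 or DHT 3 (0.0504 to 0.0891). Trim24, a nuclear receptor cofactor gene, had −1.28 ± 0.29 (adjusted p = 0.0812, and 0.000777 with the replicate block). Onecut1 had between 3.14 and 8.79 CPM in placebo and between 5.77 and 15.2 CPM in DHT (adjusted p = 0.758), and for Hnf4a the log2 fold change was 0.20 ± 0.40 (adjusted p = 0.841). These 2 were added because their motifs were searched.

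Of 4 genes for the PAR bZIP factors, which bind the D-box and are known to drive P450 genes over the day, and for their repressor, 1 fell and 0 rose. By edgeR, 0.701% of all genes were called lower and 0.952% higher. Dbp had 74.2, 98.8 and 80.8 CPM in placebo and 28.7, 32.6 and 32.7 CPM in DHT (log2 fold change −1.63 ± 0.24, adjusted p = 0.0155 by edgeR), a call lost without DHT 1 (0.120), DHT 2 (0.105) or DHT 3 (0.0739). The value for Tef, its relative, was −1.02 ± 0.25 (adjusted p = 0.101, and 0.0106 with the replicate block). Nfil3, the repressor at the same element, had 1.32 ± 0.35 (adjusted p = 0.128, and 0.00303 with the replicate block). The list's median was −0.54.

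Genes with the most similar profile were ranked by the root mean square difference of centred log2(CPM + 0.5) values over the 6 libraries, among 11955 genes with a mean of at least 1 CPM. Closest to Cyp3a41a were Sult3a1 (1.18), Cyp2b13 (1.36), Sult2a1 (1.56), Slc22a26 (1.66) and Cyp2c40 (1.72). Sult3a1 and Sult2a1 are sulfotransferase genes, and Cyp2c40 is a P450 gene of another subfamily. Sult3a1 had 23.9, 125 and 260.4 CPM in placebo, and Sult2a1 had 91.0, 297 and 79.1 CPM, so only the first shared the low placebo 1. Closest to Cyp3a11 were Fam19a2 (0.167), Col4a5 (0.168), Gpx7 (0.365), Cyp2c68 (0.367) and Tgm1 (0.372). Closest to Cyp3a25 were Gemin8 (0.0902), Ect2 (0.115), Npr3 (0.116), Ccdc126 (0.117) and Ndel1 (0.120). The 6 libraries form 2 groups, so likeness includes the difference between them.

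Markers of cell types that could alter the hepatocyte share were read beside these values. Over all genes, edgeR called 1.65%, and 15.9% had an unadjusted p under 0.05. DESeq2, limma voom and the replicate block called 3.21%, 2.24% and 5.28% lower and 2.82%, 2.43% and 5.44% higher. Summed pericentral markers, from the zone where 3A enzymes are richest, were 6238, 14007 and 8645 CPM in placebo and 10988, 8580 and 9606 CPM in DHT, and 0 of 7 were called by edgeR (3 at an unadjusted p under 0.05, Cyp1a2 lower by DESeq2 and limma voom, and Cyp1a2 lower and Axin2 higher with the replicate block). Summed hepatocyte markers were between 86100.0 and 125639 CPM in placebo and between 77169.8 and 91577 CPM in DHT, with 0 of 6 called by edgeR (2 at an unadjusted p under 0.05, Cps1 lower by DESeq2, and Cps1 and Tat lower with the replicate block). Periportal markers were between 2667 and 5453 CPM in placebo and between 1749 and 3658 CPM in DHT, with 0 of 6 called by edgeR (3 at an unadjusted p under 0.05, 2 lower by DESeq2, 0 by limma voom and 3 lower with the replicate block). Kupffer cell markers were between 167 and 255 CPM in placebo and between 206 and 312 CPM in DHT. Stellate markers were between 208 and 411 and between 188 and 233 CPM, and endothelial markers between 129 and 314 and between 142 and 185 CPM, and in these 3 lists edgeR, DESeq2, limma voom and the replicate block each called 0 (1 stellate gene had an unadjusted p under 0.05 in edgeR). Cholangiocyte markers were between 75.6 and 83.1 CPM in placebo and between 54.1 and 109 CPM in DHT, with 0 called by edgeR (3 at an unadjusted p under 0.05) and Krt19 lower by DESeq2, limma voom and the replicate block. Lymphocyte markers were between 5.85 and 13.8 CPM in placebo and between 8.96 and 14.9 CPM in DHT, with 0 called by edgeR (1 at an unadjusted p under 0.05) and Nkg7 lower by limma voom. Intestinal markers were 51.3, 38.5 and 220.1 CPM in placebo and 206, 204 and 282 CPM in DHT, nearly all from Fabp2, with Cdx1 at 0 throughout, and 0 of 3 tested were called by edgeR (0 at an unadjusted p under 0.05, Fabp2 higher by limma voom, and Fabp2 and Lgals4 higher with the replicate block). Median log2 fold changes were −0.60 (hepatocyte), 0.48 (pericentral), −1.06 (periportal), −0.89 (cholangiocyte) and 0.11 (Kupffer). They were −0.53 (stellate), −0.50 (endothelial), −0.51 (lymphocyte) and 0.95 (intestinal), against −0.02 over all genes. Values below 0 were found for 6 of 6 periportal, 5 of 6 hepatocyte, 4 of 5 cholangiocyte, 5 of 5 stellate and 2 of 7 pericentral genes. Pancreatic and adipocyte markers stayed at or below 0.0968 CPM in sum. Mitochondrial genes took between 3.23% and 6.83% of counts in placebo and between 6.44% and 8.47% in DHT. The part of these differences in the results on Cyp3a genes was not tested.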

How the data were processed

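Liver RNA was sequenced as paired-end reads, per the labels' protocols. The authors deposited whole-number counts per gene, 1 table per library, with no normalisation, per the file headers. The submitters' processing notes name Trimmomatic 0.36, STAR 2.5.2b, featureCounts, Subread 1.5.2 and GRCm38. Not given in the sources used here: strand setting, treatment of reads with several matches, and whether reads or pairs were counted. Of the 49212 rows, 0 lacked a gene name.

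Members and lists were chosen with earlier results of these data known. Levels are CPM or RPKM of all gene counts. DHT was compared with placebo by edgeR 4.0.16 under R 4.3.3 (filterByExpr, TMM, factors 0.9214 to 1.082, robust glmQLFit, glmQLFTest), adjusted by Benjamini-Hochberg over 15126 genes, with calls at 0.05. It was tested on simulated data with the same dispersion for every gene. Those data hold no genes as variable among placebo libraries as Cyp3a41a, so that test does not cover such genes. A gene could pass filterByExpr through its placebo libraries alone, as Cyp3a41a, Cyp3a41b, Cyp3a44, Cyp3a63-ps, Akr1b7 and Cux2 did. The standard error is the log2 fold change divided by the root of F. Alternatives were DESeq2 1.42.0, voom of limma 3.58.1 with quality weights per sample, size factors of DESeq2 or library size alone in edgeR, the 20 most counted and mitochondrial genes left out, 2 other low-count filters, a fit that was not robust, X and Y genes left out, the replicate number as a block, and each library left out. Named genes were the 8 members, called genes and the 3 with the smallest p of each list, the nearest tested neighbours, and the 5 most alike genes; Alb, Xist, Nr1i3, Onecut1, Hnf4a and marker genes with a call were added after their values were seen.

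Both groups carry the numbers 1 to 3 in their titles. Deviations from group means correlated between same-numbered libraries at 0.246, 0.145 and 0.602 over 15126 genes. The numbers 1 and 2 matched better when swapped (0.445 for placebo 2 with DHT 1 and 0.287 for placebo 1 with DHT 2). These values do not settle whether the numbers are pairs, and no label states a pairing. The main fit was unpaired, and the replicate block was run only as an alternative. No 2 libraries agreed within sampling noise (chi-square per degree of freedom at least 105 for every pair). Intervals and the 3-count floor cover counting error only, as reads carry no molecular identifiers. Coding identities and 150-base windows came from GENCODE M21 transcripts, and promoters from RefSeq on GRCm38.p6, where all 8 members matched by symbol. Protein sequences were not used here.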

Additional observations from a re-analysis of the deposited data

How the results depend on the processing

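With 3 libraries a group, the calls are fragile. Over all genes, 250 were called, against 521 with no low-count filter, 1621 with the replicate block, 707 by limma voom, 1008 by DESeq2 and between 84 and 862 with 1 library left out. Members called lower numbered 4, against 2 with no low-count filter and between 0 and 4 with 1 library left out, and members called higher numbered 0 in every alternative. With the filter on low counts removed, Cyp3a41a (adjusted p = 0.177), Cyp3a41b (0.197) and Cyp3a44 (0.164) lost their calls and Cyp3a11 gained one (0.00569). The sign of Cyp3a25 turned in 2 alternatives, limma voom (log2 fold change 0.0094) and the fit without placebo 3 (0.012), and with 1 library left out it ranged from −0.344 to 0.012. Over the 8 members, 94 of the values under alternatives stayed on their side of the threshold in the same direction, 23 lost a call, 8 gained one and 2 turned sign. Cyp3a41b was removed by the filter of at least 1 CPM in at least 3 libraries and has no value there.

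The replicate block took the call from Cyp3a44 and Cyp2b13 and gave one to Cyp3a11, Cyp3a13, Cyp3a63-ps, Gpr12, Gpx7, Pgrmc2, Trim24, Tef, Nfil3 and the marker genes given in the report, and it changed no other call among genes named there. Calls in the receptor list were between 0 and 1 with 1 library left out. In the list of genes for electron transfer and other P450 partners they were 2 with the replicate block and between 0 and 1 with 1 library left out. In the PXR and CAR target list, 3 became 7 with no low-count filter, 13 with the replicate block, 11 by limma voom, 12 by DESeq2 and between 1 and 7 with 1 library left out. In the growth hormone and liver factor list, 2 became 4 with no low-count filter, 5 with the replicate block, by limma voom and by DESeq2, and between 1 and 5 with 1 library left out. In the PAR bZIP list, 1 became 2 with no low-count filter, 3 with the replicate block, 2 by limma voom, 3 by DESeq2 and between 0 and 2 with 1 library left out. The cause of these changes was not tested. Depth limits Cyp3a41b in DHT, where 0 counts in DHT 3 allow up to 0.0726 CPM.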
